A study of Homo sapiens with 3 samples.

Results

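HS-5 is an established human line of bone marrow stromal cells that secretes cytokines and matrix. The cells described here are those with the highest mitotic score in the HS-5 monoculture, and they were chosen from the transcript counts themselves. The score is the share of a cell's unique molecular identifiers (UMIs, counted RNA molecules) on 11 genes of the G2 phase and mitosis (UBE2C, CENPE, MKI67, TOP2A, TPX2, ANLN, CENPF, CKAP2L, KIF14, KIF20B and CEP55). Of 3865 HS-5 barcodes, 1802 held at least 1000 UMIs, and the top 15% of these, 271 cells, are the high-scoring cells. They were compared with the 133 cells that held no UMI on the score genes (score-zero cells), and 1398 cells lay between. The whole series held 11822 barcodes.

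Transcripts were counted by Drop-seq, in which droplets pair single cells with beads that carry a barcode. The series has 3 libraries of untreated cells, 1 per condition: HS-5 in monoculture, the myeloma line MM.1S in monoculture, and both lines after a coculture of 4 h. Both are established lines grown in culture, without the other cells of the marrow. Since each condition has a single library there was no test, and every interval is an exact 95% interval that covers counting error only. The libraries held 3981392 to 10433182 UMIs, with medians of 789 to 2183 UMIs per barcode. HS-5 shared 44 barcodes with the MM.1S library and 76 with the coculture, and 1 high-scoring cell carried a shared barcode. In all, 5 of the 271 high-scoring cells had a barcode that was shared, lay 1 base from another or was a run of a single base. Without such barcodes 265 cells made up the top 15%.

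A cell that prepares to divide switches on its genes in order. The enzymes and histones that copy and package DNA come first, in S phase. The cyclins, kinases, motor proteins and kinetochore components that build the spindle follow in G2 and mitosis, and most of their transcripts are lost again once the cell has divided. In stromal cultures this programme runs beside the secretion of collagens, proteases and cytokines.

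The score ran from 1.82% to 7.96% of UMIs in the high-scoring cells, with a median of 2.35%. No gap separated them from the other cells: the last cell inside had 38 score UMIs of 2087 (1.82%) and the first outside 20 of 1103 (1.81%). The high-scoring cells held a median of 1517 UMIs, the score-zero cells 1331 and the cells between 1864. With each cell thinned to 1000 UMIs, the median number of detected genes was 728, 731 and 741. Without thinning, the median share of UMIs on all genes with the MT- prefix was 2.56%, 2.44% and 2.38%. This is a wider set than the list of 13 mitochondrially encoded genes used below.

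These values chose the cells and are given as a description. CENPF, a kinetochore and nuclear matrix protein, supplied 25.1% of the score UMIs of the high-scoring cells, TOP2A, the topoisomerase that untangles sister DNA, 19.2%, and CENPE, the kinesin that carries chromosomes to the spindle equator, 16.9%. UBE2C, the ubiquitin-conjugating enzyme that works with the anaphase-promoting complex, supplied 3.12%. Each high-scoring cell held UMIs of 5 to 11 of the score genes, with a median of 9, and 35 cells held all of them. Among the cells between, the median was 6, and 855 of 1398 held at least 5. Over the cells between, the level of the high-scoring cells was between 2.12-fold higher for UBE2C and 4.87-fold higher for CENPE.

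Markers of mitosis that the score did not use were higher in the same cells. The 12 markers (CCNB1, CCNB2, CDK1, CDC20, PLK1, AURKA, AURKB, BUB1, BIRC5, PTTG1, HMMR and NUSAP1) were all higher than in score-zero cells. Summed, they reached 5136 CPM (UMIs per 1000000 UMIs outside the score; 4939 to 5339) in the high-scoring cells, 2279 CPM in the cells between and 201 CPM (146 to 270) in the score-zero cells. After thinning, 264 of the 271 high-scoring cells held at least 1 such UMI (97.4%, 94.75 to 98.96%), against 14 of the 133 score-zero cells (10.5%, 5.88 to 17.0%) and 67.2% of the cells between. Genes of G2 and mitosis outside the rule were therefore high in these cells, but the score-zero cells were chosen for lacking score-gene UMIs. The cells between held many of the same transcripts. After thinning, 399 of them held at least 3 UMIs of the 12 markers, as did 207 high-scoring cells. Whether the high-scoring cells were in G2 or in mitosis was not tested. The HS-5 markers summed to 12439 and 13738 CPM in high-scoring and score-zero cells, and only 1 of the 12 had no UMI in each. The MM.1S markers summed to 199 and 211 CPM, against 54839 CPM in the MM.1S library.

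Outside the score genes, 2010 genes averaged at least 100 CPM across the 2 groups. The log2 ratio of high-scoring over score-zero cells (1 CPM added to each) had a median of -0.05 over these genes. It was at least 0.5 in 266 genes (13.2% of those tested) and at least 1 in 100 (4.98%). It was -0.5 or lower in 225 genes (11.2%) and -1 or lower in 23 (1.14%). Since the same cells gave the score, these shares describe the 2 groups and support nothing further. Many genes of a list passed the minimum only through the group in which they were high, so the lists are also given by the summed level over all their genes.

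The regulators that drive entry into mitosis were far higher in the high-scoring cells than in score-zero cells. Of 25 mitotic cyclins and kinases, 8 were abundant enough to compare, and all 8 had a log2 ratio of at least 1, with a median of 5.08. These 8 passed the minimum only through the high-scoring cells, so this count and median describe the 2 groups only. Against all other cells the median was 1.19. Over the whole list the level was 4775 CPM (4585 to 4971) in high-scoring cells and 316 CPM (246 to 400) in score-zero cells. CCNB1, the cyclin B1 that activates CDK1 (chromosome 5, 69167010 to 69178245 on the plus strand, GRCh38 in GENCODE release 29), had 343 UMIs in high-scoring cells and 3 in score-zero cells, 689 CPM (618 to 766) against 13.7 CPM (2.83 to 40.1). This is a ratio of 50.2 with a counting interval of 17.0 to 244. Its UMIs came from 156 of the 271 cells, with at most 23 in one cell. AURKA, the kinase of spindle poles, had 313 UMIs against 2 (ratio 68.7, 18.8 to 569), GTSE1, a microtubule-binding protein of G2, 245 against 1, and NEK2, a kinase that parts the centrosomes, 124 against 1. CCNA2, the cyclin A2 of S and G2, had 303 against 22.9 CPM and BUB1, a checkpoint kinase, 223 against 13.7 CPM. CDK1 itself had 490 CPM (430 to 555) against 18.3 CPM (4.99 to 46.9). CKS2, a small partner of CDK1, had the lowest ratio of the list, with 382 CPM against 41.2 CPM (log2 ratio 3.18). AURKA has 2 annotated pseudogenes named after it, and reads of such copies could be assigned to either.

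Spindle motors and cytokinesis proteins were likewise higher, and all 17 of 30 that could be compared had a log2 ratio of at least 1 (median 4.00). Here too many genes passed the minimum only through the high-scoring cells, and against all other cells the median was 1.53. The summed level of the list was 9526 CPM (9257 to 9801) in high-scoring cells and 595 CPM (497 to 707) in score-zero cells. KIF2C, the kinesin that depolymerises microtubules at the kinetochore, had 179 UMIs in 110 of the 271 cells and none in score-zero cells. With 3 counts over the score-zero group taken as the limit, its level was at least 26.2-fold higher. HMMR, which holds spindle poles together, had 267 UMIs against 1 (ratio 117, 20.8 to 4643), and DLGAP5, which stabilises kinetochore fibres, 256 against 1. KIF4A, a kinesin of the spindle midzone, had 215 against 1. ASPM, a protein of the spindle poles, was the most abundant of those named, with 1608 CPM (1499 to 1724) against 45.8 CPM (21.95 to 84.2), and 73.8% of thinned high-scoring cells held a UMI against 6.77% of score-zero cells. KIF22, which pushes chromosome arms, had the lowest log2 ratio, 1.52. Tubulins and stathmin were mixed, with a summed level of 1898 CPM (1778 to 2022) against 1328 CPM (1179 to 1490). Of the 4 of 11 that could be compared, TUBB6 had a log2 ratio of 1.02, STMN1, which destabilises microtubules, 0.83, TUBB 0.47 and TUBA1A -0.72. Against all other cells STMN1 turned to -0.19.

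Kinetochore and checkpoint genes were uneven. Of 37, 12 could be compared, 11 had a log2 ratio of at least 0.5 and 1 of -0.5 or lower, with a median of 2.64, and the summed level was 5102 CPM (4906 to 5305) against 1415 CPM (1261 to 1581). HJURP, the chaperone that loads the centromeric histone, had 125 UMIs against 0, at least 18.3-fold higher. KNL1 (163 UMIs against 1) and NUF2 (150 against 2), both parts of the outer kinetochore that binds microtubules, followed. BUB3, a checkpoint protein that is also present in interphase, had 588 CPM against 270 CPM (log2 ratio 1.12). DSN1, a subunit of the MIS12 complex of the same outer kinetochore, went the other way, with 108 CPM against 197 CPM (-0.85), on 54 and 43 UMIs.

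Proteins that shape chromosomes also differed by role. Of 19 genes of condensin, cohesin and the passenger complex, 10 could be compared and 8 had a log2 ratio of at least 0.5 (median 2.03, summed level 8221 against 2532 CPM). CDCA8 and BIRC5, both of the passenger complex that corrects attachments, had 269 against 4.58 CPM and 498 against 32.0 CPM. SMC4, the core of condensin, was the most abundant, with 3241 CPM (3085 to 3403) against 540 CPM (447 to 647), 6.0-fold higher (4.97 to 7.30). The cohesin subunits, which hold sister chromatids from S phase on, were closer to equal: SMC1A had a log2 ratio of 0.54, SMC3 of 0.40 and STAG2 had a log2 ratio near 0, on 125 and 55 UMIs. The anaphase-promoting complex and its partners summed to 2281 against 1126 CPM. Of 8 comparable genes, CDC20, its activator, had 520 against 22.9 CPM and PTTG1, the securin it destroys, 562 against 59.5 CPM. CDC27, a core subunit, had a log2 ratio of 0.82, and the other subunits lay between -0.46 and 0.16.

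Promoters of the separated genes were then read for 2 sequence motifs that are known from G2 and mitosis genes: the CCAAT box, and the CHR element in its form TTTGAA. Windows of 300 bases, 250 before and 50 after the RefSeq start of a gene (GRCh38.p14), were searched on both strands, so ATTGG and TTCAAA count as matches. Neighbouring matches of the 2 motifs can share at most 1 base. CCAAT was present in 35.7% of all 27305 windows, in 39.6% of the tested genes' windows and in 58 of the 88 windows found for genes with a log2 ratio of at least 1 (65.9%). TTTGAA was present in 15.4% of all windows, in 10.6% of the tested genes' windows and in 45 of these 88 (51.1%). Both together were present in 6.08% of all windows and in 34 of the 88 (38.6%). Among the 17 windows found for the genes at -1 or lower, 9 held CCAAT and 1 held TTTGAA. Of the 15 genes with the highest ratios 13 had a window, 11 of which held CCAAT and 10 TTTGAA, and of the 9 score genes with a window 7 held CCAAT and 8 TTTGAA. A match is a string of letters and does not show that a factor binds there.

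The following windows show both motifs side by side in a score gene (TOP2A), a spindle gene (HMMR) and a passenger complex gene (CDCA8), CCAAT alone in CCNB1, and CCAAT alone in MCM6, which was lower in the high-scoring cells. Each is written 5′ to 3′ along the gene's own strand, and capitals mark CCAAT or ATTGG and TTTGAA or TTCAAA. TOP2A is at chr17:40417847-40418146 (minus strand), HMMR at chr5:163460382-163460681 (plus), CDCA8 at chr1:37692266-37692565 (plus), CCNB1 at chr5:69166900-69167199 (plus) and MCM6 at chr2:135876394-135876693 (minus).
TOP2A: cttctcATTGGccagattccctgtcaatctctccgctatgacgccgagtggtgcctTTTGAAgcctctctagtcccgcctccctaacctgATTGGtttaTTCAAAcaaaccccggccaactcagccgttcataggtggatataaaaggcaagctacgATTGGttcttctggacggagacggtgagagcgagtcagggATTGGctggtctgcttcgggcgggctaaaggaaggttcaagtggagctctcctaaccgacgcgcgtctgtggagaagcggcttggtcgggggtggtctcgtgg
HMMR: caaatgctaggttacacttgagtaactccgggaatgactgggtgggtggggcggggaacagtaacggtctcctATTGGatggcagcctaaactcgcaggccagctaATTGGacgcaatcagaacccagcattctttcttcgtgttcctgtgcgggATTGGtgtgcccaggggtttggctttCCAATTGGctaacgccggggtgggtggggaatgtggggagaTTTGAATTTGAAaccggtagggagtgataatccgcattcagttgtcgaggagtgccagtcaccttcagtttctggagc
CDCA8: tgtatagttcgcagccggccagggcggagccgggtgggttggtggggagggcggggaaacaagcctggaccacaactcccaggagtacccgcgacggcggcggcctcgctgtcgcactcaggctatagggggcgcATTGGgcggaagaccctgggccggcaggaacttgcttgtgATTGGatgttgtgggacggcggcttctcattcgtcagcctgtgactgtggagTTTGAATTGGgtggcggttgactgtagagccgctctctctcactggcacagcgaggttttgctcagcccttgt
CCNB1: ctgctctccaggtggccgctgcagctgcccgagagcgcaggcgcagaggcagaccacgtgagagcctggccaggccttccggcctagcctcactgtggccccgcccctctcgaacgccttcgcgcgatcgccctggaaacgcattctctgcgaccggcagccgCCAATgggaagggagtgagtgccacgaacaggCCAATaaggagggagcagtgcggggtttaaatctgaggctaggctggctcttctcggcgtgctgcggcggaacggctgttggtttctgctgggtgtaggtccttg
MCM6: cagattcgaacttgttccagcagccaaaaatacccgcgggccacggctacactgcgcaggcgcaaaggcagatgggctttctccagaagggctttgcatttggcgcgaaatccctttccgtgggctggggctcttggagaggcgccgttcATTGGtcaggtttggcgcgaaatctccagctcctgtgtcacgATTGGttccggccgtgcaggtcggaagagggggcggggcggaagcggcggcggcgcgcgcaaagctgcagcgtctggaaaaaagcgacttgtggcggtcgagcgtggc
TOP2A held 4 CCAAT matches and 2 TTTGAA matches, HMMR 5 and 2, and CDCA8 3 and 1. CCNB1 held 2 CCAAT matches and no TTTGAA match, and MCM6 likewise 2 and none. KIF2C, which had no UMI in score-zero cells, held neither.

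Genes of DNA replication mostly showed the opposite pattern. Over all tested genes, 13.2% had a log2 ratio of 0.5 or higher and 11.2% of -0.5 or lower. Of 49 S-phase genes, 17 could be compared, 10 had a log2 ratio of -0.5 or lower and 4 of 0.5 or higher, with a median of -0.63, and the summed level was 3994 CPM (3820 to 4173) in high-scoring cells against 5393 CPM (5089 to 5710). MCM6, a subunit of the replicative helicase (chromosome 2, 135839626 to 135876426, minus strand), had 11 UMIs in high-scoring cells and 53 in score-zero cells, 22.1 CPM (11.03 to 39.5) against 243 CPM (182 to 317), which is 10.98-fold lower. MCM3, another helicase subunit, had 48.2 CPM (30.9 to 71.7) against 211 CPM (154 to 281). PCNA, the sliding clamp of the polymerase, had 42.2 CPM (26.1 to 64.5) against 160 CPM (112 to 223). SLBP, the protein that binds histone messenger RNAs, had 56.2 against 197 CPM. The 4 higher genes were led by RRM2. RRM2, a subunit of ribonucleotide reductase, had 388 CPM (335 to 446) against 68.7 CPM (38.4 to 113), and RAD51AP1, CENPU and ATAD2 had log2 ratios of 1.58, 0.85 and 0.64. With a minimum of 200 CPM only 5 S-phase genes could be compared, MCM6 and PCNA were not among them, and the median turned to 0.15.

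Histones and chromatin proteins were higher. Only 2 of 45 replication-dependent histone genes could be compared. Most transcripts of this class carry no poly(A) tail, the feature by which the beads catch RNA. HIST1H4C had 1390 against 243 CPM (log2 ratio 2.51) and HIST1H1D 98 UMIs against 4, and the summed level of the list was 1873 against 430 CPM. Of the 16 comparable histone variants and HMG proteins, 11 had a log2 ratio of at least 0.5 and none of -0.5 or lower, and the list summed to 7931 against 5022 CPM. HMGB2, a chromatin protein that is abundant in dividing cells, had 1659 CPM (1547 to 1776) against 124 CPM (81.5 to 180), and 73.1% of thinned high-scoring cells held a UMI against 10.5%. H2AFX, the variant phosphorylated at DNA breaks, and HMGB3 had log2 ratios of 2.64 and 2.01. TMPO, which ties chromatin to the nuclear lamina, had 231 against 82.4 CPM, while LMNA, the lamin itself, had 695 against 613 CPM. The lamina and envelope list summed to 1369 against 957 CPM.

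The cells were then laid out in order of score, with the cells between in 3 groups of 466 and the high-scoring cells in groups of 91, 90 and 90. Spindle genes climbed at every step, from 595 CPM in score-zero cells through 1069, 3466 and 5948 CPM in the cells between to 8460, 8946 and 11525 CPM in the high-scoring cells. The mitotic cyclins and kinases ran the same way, from 316 CPM through 710, 2292 and 3502 to 4377, 4554 and 5528 CPM. Replication-dependent histones did not: they stood at 430 CPM in score-zero cells, at 810, 2318 and 2560 CPM in the cells between and at 1767, 2002 and 1840 CPM in the high-scoring cells. HIST1H4C accordingly peaked in the upper group between (2110 CPM) and was lower in the 3 high-scoring groups (1374, 1442 and 1342 CPM).

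MCM6, MCM3, PCNA and SLBP had their highest levels at the low end of the score. MCM6 went from 243 CPM in score-zero cells through 212, 177 and 93.4 CPM to 28.9, 5.55 and 34.6 CPM. PCNA was highest in the lowest group between (191 CPM) and had 52.0, 27.7 and 48.4 CPM in the high-scoring groups. RRM2 reached 404 CPM in the upper group between and stayed at 410, 383 and 367 CPM. The level of S-phase genes thus split within the list: the helicase and clamp genes were high where spindle genes were low, and RRM2 was high where both histones and spindle genes were.

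The stromal programme was present in the high-scoring cells at somewhat lower levels than in score-zero cells. Among all tested genes, 13.2% had a log2 ratio of 0.5 or higher and 11.2% of -0.5 or lower. Of 19 comparable collagen and matrix genes none had a log2 ratio of 0.5 or higher and 6 had -0.5 or lower (median -0.24, summed level 8195 against 10794 CPM). THBS1, an adhesive glycoprotein of the matrix, had 572 against 984 CPM and FBN1, a microfibril protein, 102 against 188 CPM. COL1A1 had 558 against 659 CPM and FN1 305 against 320 CPM. Over the ordered groups COL1A1 was lowest in the middle group between (408 CPM) and had 491, 549 and 650 CPM in the high-scoring groups. The lower matrix level is therefore shared by the cells between, whose sums were 8726, 7610 and 7958 CPM.

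Of 12 comparable cytokines and related genes, 1 had a log2 ratio of 0.5 or higher and 4 of -0.5 or lower (median -0.42, summed level 7873 against 10112 CPM). The shares over all tested genes were 13.2% and 11.2%. IL6 had 1187 against 1570 CPM, CXCL8 1456 against 1840 CPM and IL1B 1825 against 1946 CPM. In the 3 groups between, IL6 had 1400, 1173 and 1156 CPM and IL1B 1444, 1404 and 1689 CPM. The list summed to 8032, 8445 and 9013 CPM there, so a level below that of score-zero cells was also seen in the cells between. CXCL5, a neutrophil attractant, had 524 against 943 CPM, and CSF2, the growth factor GM-CSF, had 137 against 91.6 CPM, on 68 and 20 UMIs, but against all other cells its log2 ratio turned to -0.71. PTGS2, the inducible cyclooxygenase, had 122 against 394 CPM, but 21 of its 86 UMIs in score-zero cells came from 1 cell. In the cells between PTGS2 had 206, 153 and 178 CPM. The metalloproteinases and their inhibitors summed to 18568 against 21777 CPM. MMP1, the interstitial collagenase, had 10939 against 12598 CPM. PLAU, the urokinase, was the 1 gene of its list at 0.5 or higher, with 207 CPM (168.8 to 250.8) against 77.8 CPM (45.3 to 125), and MMP2, a gelatinase, was the 1 at -0.5 or lower, with 40 against 27 UMIs (log2 ratio -0.62).

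Among the remaining genes with the lowest ratios, ANGPTL4, a secreted lipase inhibitor, had 90.4 against 307 CPM and RCAN1, an inhibitor of calcineurin, 86.3 against 252 CPM. The lowest of all, DDHD1, rests on 1 cell, which held 58 of its 63 UMIs in score-zero cells. SLFN5 had 24 against 43 UMIs, 15 of the latter in 1 cell. MCM4 had a log2 ratio of -1.45. Interferon response genes had 2 comparable members, ISG15 (-0.74) and IFITM3 (-1.12), and a sum of 637 against 884 CPM. The immediate early genes FOSL1 (0.93) and KLF6 (0.70) were higher, and JUN, IER2 and JUND lay between -0.39 and -0.24, with a list sum of 1430 against 1639 CPM.

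Housekeeping lists lay closer to 0. For all tested genes the shares were 13.2% at 0.5 or higher and 11.2% at -0.5 or lower. None of 12 mitochondrially encoded genes, of 5 G1 cyclins and CDK inhibitors or of 2 nuclear non-coding RNAs passed 0.5 in either direction. The cells between differed, with 7738, 8839 and 7797 CPM of mitochondrially encoded genes in their 3 groups. In the high-scoring groups these genes had 5919, 5680 and 5929 CPM. CCND1, the cyclin of early G1, had 1357 against 1877 CPM (-0.47). Cytosolic ribosomal proteins had a median of -0.26, with 7 of 70 at -0.5 or lower and none at 0.5 or higher, proteasome genes a median of -0.21 (5 of 26 lower), glycolysis genes -0.12 (1 of 8 lower, LDHB), heat shock proteins -0.11 (1 of 13 higher, 2 lower) and actin cytoskeleton genes -0.03 (2 of 18 higher, 1 lower). The sums in high-scoring and score-zero cells were 64881 and 76931 CPM for ribosomal proteins, 9574 and 11046 CPM for the proteasome, 5050 and 5796 CPM for glycolysis, 17433 and 17524 CPM for heat shock proteins, and 10945 and 11532 CPM for the actin cytoskeleton. They were 5835 and 6121 CPM for mitochondrially encoded genes, 3090 and 3415 CPM for the G1 list, and 32461 and 27357 CPM for the nuclear non-coding RNAs. None of 23 cell cycle transcription factors reached the minimum, and their summed level was 849 CPM (770 to 934) against 687 CPM (581 to 806). Ribosomal protein transcripts declined along the score within the high-scoring cells too, from 69683 through 64167 to 60021 CPM. MALAT1 and the other nuclear non-coding RNAs were lowest in the middle group between and had 28798, 33606 and 35420 CPM in the high-scoring groups.

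Transcript length differed between the groups, without one direction along the score. Over 1838 tested genes outside the cell cycle lists, the median log2 ratio of high-scoring over score-zero cells was 0.07 in the 460 genes with the longest transcripts and -0.15 in the 460 with the shortest. Against the cells between, the medians were 0.22 and -0.26. Between the cells between and the score-zero cells they ran the other way, at -0.13 and 0.11. Of the UMIs on these 2 sets of genes, the long ones held a median of 45.6% in high-scoring cells, 43.0% in score-zero cells and 40.9% in the cells between. Score genes such as CENPF (10307 bases), MKI67 (12678 bases) and CENPE (8612 bases) are long and UBE2C (914 bases) is short. The 12 markers outside the score have transcripts of 1070 to 3576 bases. The part of length in the choice of cells was not tested.

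The high-scoring cells differed among themselves. After thinning, 101 of the 271 held at least 5 UMIs of the 25 mitotic cyclins and kinases, 100 held 3 or 4, and 70 held at most 2, of which 6 held none. Of the score-zero cells 131 of 133 held at most 2, and of the cells between 140 held at least 5. Median UMIs per cell were 1670 in the first set and 1344 in the last. The first set had more spindle transcripts than the last (10883 against 7539 CPM, ratio 1.44, 1.34 to 1.56) and more PTTG1 (759 against 299 CPM, 1.75 to 3.76), NUSAP1 (862 against 436 CPM, 1.45 to 2.75) and NUF2 (364 against 180 CPM, 1.24 to 3.45). It had fewer replication-dependent histone transcripts (1455 against 2103 CPM, ratio 0.69, 0.58 to 0.82) and S-phase transcripts (3300 against 4325 CPM, ratio 0.76, 0.68 to 0.86). Condensin and cohesin genes (ratio 1.07, 0.99 to 1.16) and the summed HS-5 markers (1.07, 1.01 to 1.15) lay near 1. The middle set, with 3 or 4 UMIs of the cyclins and kinases, had 2125 CPM of replication-dependent histones. Median scores were 2.45% in the first set and 2.20% in the last. Whether the sets differ in cell cycle position was not tested.

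The same rule was then applied to the HS-5 cells of the coculture, 998 of which had at least 1000 UMIs and were assigned to the line from line-specific transcripts. At the monoculture's threshold they counted 27 high-scoring cells (2.71%, 1.79 to 3.91%) against 271 of 1802 (15.04%, 13.4 to 16.8%) in monoculture. With both thinned to 1000 UMIs the shares were 2.81% and 15.2%, and cells without a score UMI made up 26.3% and 12.9%. The markers outside the score went the other way: 24.4% of the coculture's HS-5 cells (21.8 to 27.2%) held at least 5 UMIs of the 12 markers after thinning, against 13.9% (12.4 to 15.6%) in monoculture. Over all HS-5 cells, the 12 markers summed to 2997 CPM (2917 to 3079) in coculture and 2462 CPM (2418 to 2507) in monoculture, while the score genes summed to 5275 and 7770 CPM.

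Long and short genes differed, with exceptions. CENPF was 0.46-fold (0.43 to 0.48) and CENPE 0.45-fold (0.42 to 0.49) of its monoculture level, TOP2A 0.77-fold and TPX2, of 3605 bases, 0.85-fold, and the longest, MKI67, 0.68-fold, while ANLN (4787 bases) and CKAP2L (4533 bases) did not differ from 1 beyond counting error. UBE2C was 1.42-fold higher (1.31 to 1.53), PTTG1 (1070 bases) 1.62-fold (1.505 to 1.74) and CCNB1 (2169 bases) 1.27-fold (1.16 to 1.39). Other short genes were not higher: AURKB (1254 bases) and CDC20 (1777 bases) were both 0.92-fold, with intervals that include 1, and HMMR (3102 bases) was 0.74-fold (0.64 to 0.86). Over the 1838 genes outside the cell cycle lists, the median log2 ratio of coculture over monoculture was -0.34 for the longest and 0.19 for the shortest 460 genes. A lower score in coculture and a lower capture of long transcripts in that library cannot be told apart, and the direction of the difference depended on the markers used.

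Within the coculture, the top 15% of its own HS-5 cells (150 cells, threshold 1.13%) were compared with its 213 score-zero cells, and 1683 genes were tested in both libraries. Of the 1990 genes tested in coculture, 12.1% had a log2 ratio of 0.5 or higher, 4.77% of 1 or higher, 10.1% of -0.5 or lower and 1.01% of -1 or lower. Of the 82 of these genes at 1 or higher in monoculture, 80 had a ratio above 0 in coculture, where 47.7% of all 1683 genes did. Of these 82, 65 were at 1 or higher there too. ASPM had a log2 ratio of 5.15 in coculture and 5.10 in monoculture, and CCNB1 4.83 and 5.55. HMMR had 299.7 CPM in the coculture's top cells and no UMI in its score-zero cells. Of the 13 shared genes at -1 or lower, 12 were below 0 in coculture, where 52.3% of all genes were, but only 1 was at -1 or lower, MCM6 (-2.41). PCNA had -0.37. MCM3 (-2.40) and DDHD1 (0.25) lay under the minimum level in coculture and are not among the 13.

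MM.1S cells scored far lower. None of 3870 MM.1S cells reached the HS-5 threshold, which allows a share of up to 0.0953%, and the pooled score was 0.069% of UMIs against 0.777% in HS-5. The gap was smaller by the 12 markers outside the score, counted after thinning. At least 3 such UMIs were held by 441 MM.1S cells (11.4%, 10.4 to 12.4%), against 33.7% of HS-5 cells in monoculture. At least 5 were held by 147 of 3870 MM.1S cells, against 251 of 1802 HS-5 cells. The top 15% of MM.1S cells by score (581 cells) began at 0.130% of UMIs, or as few as 2 score UMIs. Of 1462 genes tested there against the 2113 MM.1S cells with none, 12.1% had a log2 ratio of 0.5 or higher, 3.63% of 1 or higher, 2.8% of -0.5 or lower and 0.479% of -1 or lower. In this comparison the spindle genes tested in all 3 sets of cells had a median of 2.84, against 3.89 in HS-5 monoculture and 4.45 in HS-5 in coculture (7 genes). Of 36 genes at 1 or higher in HS-5 that were tested in MM.1S, 34 were above 0, where 67.4% of all 957 shared genes were. The lower genes were not shared in this way. Among the 5 at -1 or lower in HS-5, 0 were below 0 in MM.1S, where 32.6% of the shared genes were. Among the 110 at -0.5 or lower, 47 were below 0 and 2 were at -0.5 or lower.

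**Figure D1:**
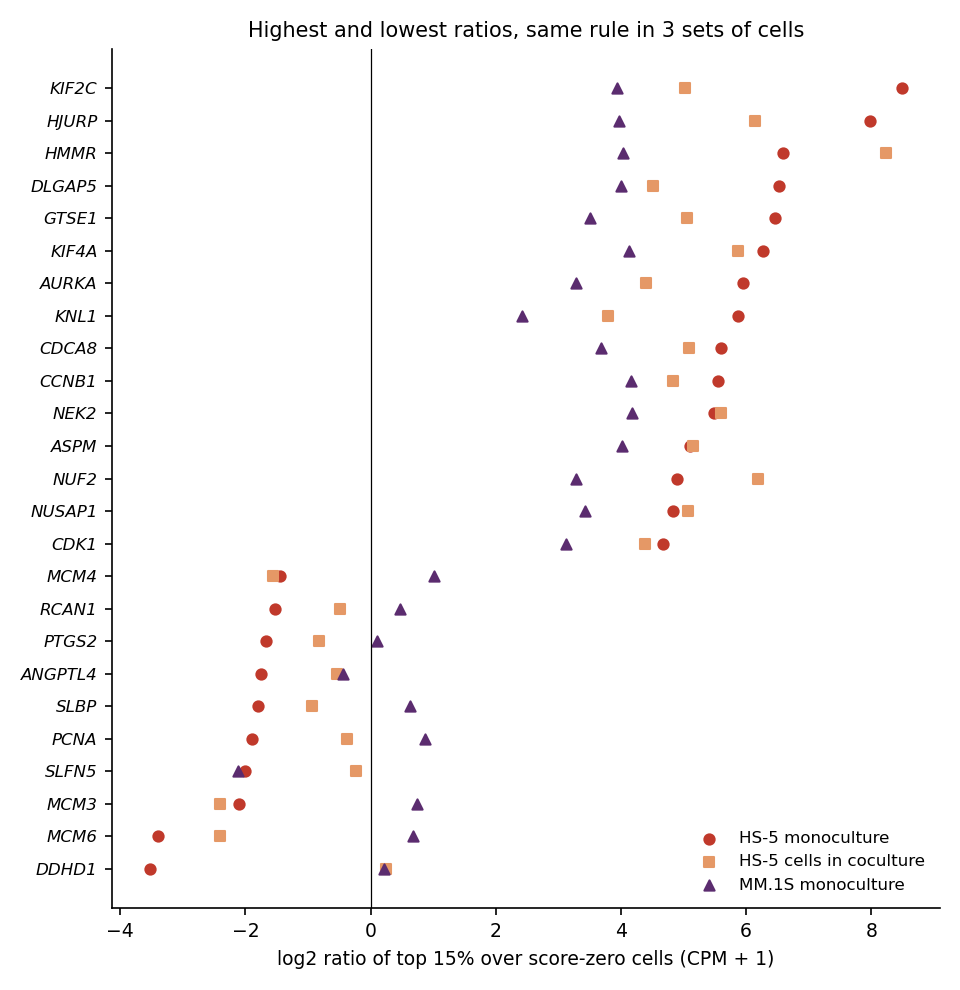
Log2 ratio of the top 15% over score-zero cells (x axis, CPM plus 1) for the 15 genes with the highest and the 10 with the lowest ratio in HS-5 monoculture (circles), with the same rule in HS-5 cells of the coculture (squares) and in MM.1S monoculture (triangles). KIF2C and HJURP in HS-5 monoculture and HMMR in coculture had no UMI in score-zero cells, so their positions depend on the 1 CPM added. The 15 highest lie above 2 in all 3 sets, and MCM3, MCM6 and PCNA lie below 0 in both sets of HS-5 cells and above 0 in MM.1S.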

How the data were processed

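Single-cell transcripts were counted in 3 Drop-seq libraries, and the deposited tables hold the authors' raw counts of UMIs for each gene in each barcode. The submitters' processing notes name Cell Ranger 3.0.2, UMI-tools 1.0.0, STAR 2.5.3a, Subread featureCounts 1.6.4, SAMtools 1.9 and GRCh38 (hg38), with no role given. The methods name Seurat for the authors' own analyses. The score, the gene lists and the comparison were chosen with earlier results of these data known.

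Cells with at least 1000 UMIs were kept, and no doublet caller was run. UMIs were summed over the cells of a group, scaled to CPM without the score genes and compared as log2 ratios with 1 CPM added (Python 3.11.15, numpy 2.4.6, scipy 1.17.1, pandas 2.3.3). CPM of score genes and of whole libraries used all UMIs. Genes needed a mean of 100 CPM over both groups, and ratios of 0.5 and 1 in either direction were counted. Thinning used a fixed seed. Intervals were exact for CPM (Poisson), for shares of cells (Clopper-Pearson) and for ratios (conditional). In score-zero cells 3 counts are worth 13.7 CPM. Coculture cells were assigned to HS-5 where over 0.8 of their line-specific UMIs were HS-5 ones. Genes to name were drawn from the score genes, the 15 highest and 10 lowest ratios and the 3 highest and lowest genes of each of 26 lists, not all of which are described, with further members of a list chosen after their values were seen. An item picked by these rules is not reported here. Lengths are of the longest protein-coding transcript in GENCODE release 29, which holds 97.5% of the symbols. The steps were tested on simulated data.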

Additional observations from a re-analysis of the deposited data

Results flagged for a closer look

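The S-phase genes had a median below 0 in HS-5 and above 0 in MM.1S, each in its own top 15% of cells by score. Single genes were split in HS-5: most of those tested were lower in these cells than in score-zero cells, but RRM2 was higher (log2 ratio 2.48). Over the 5 genes tested in all 3 sets of cells, the median log2 ratio was -0.68 in HS-5 monoculture and 0.92 in MM.1S monoculture. MCM3 had -2.10 in HS-5 and 0.75 in MM.1S, and PCNA -1.90 and 0.87. HSPE1, a mitochondrial chaperonin, had -0.60 and 0.57. Each line is 1 library and these differences were not tested. In MM.1S the median over all 1462 tested genes was 0.13, and the cells compared held a median of 2919 and 1875 UMIs, with as few as 2 score UMIs in a cell of the top 15%.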

How the results depend on the processing

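No paired analysis was possible because the labels give no replicate numbers and each condition is 1 library, so no replicate could be left out either. At 500 UMIs per cell 528 cells were chosen, with 177 genes at 0.5 or higher, 135 at -0.5 or lower and an S-phase median of -0.43. At 2000 UMIs there were 113 cells and 393 lower genes, and the medians were 4.96 for spindle genes, -0.61 for cytokines and -0.70 for immediate early genes, with RPL22L1 at 0.14. A minimum of 50 CPM gave 581 higher and 578 lower genes, 200 CPM gave 99 and 84, and no minimum 8264 and 6048. The cyclin and kinase median was 4.43 in thinned cells, 4.15 with 10 CPM added, 3.87 at 50 CPM and 3.67 with no minimum, which gave 1.31 for kinetochore genes. At 200 CPM the condensin median was 1.29 and the S-phase median 0.15. With score-zero cells matched in UMIs, spindle genes had 4.71 and S-phase genes -0.41. Against all other cells, medians were 1.19 for cyclins and kinases, 0.64 for kinetochore, 1.53 for spindle, 0.023 for tubulin, 0.73 for condensin, 0.17 for histone variant and -0.52 for mitochondrially encoded genes, and CENPK (-0.12), STMN1 (-0.19), CENPU (-0.052), HIST1H4C (-0.18), CSF2 (-0.71) and MYL12B (-0.0053) were no longer higher. Without doubtful barcodes, a choice made after seeing the data, 266 genes were higher and 237 lower. The cause of each shift was not tested. Over the 15 alternatives, genes at 1 or higher ranged from 45 (minimum of 200 CPM) to 6878 (no minimum) and those at -1 or lower from 3 to 3752, with 8 of the 15 lower counts over 1.5 times from the reported 23. Of 297 list medians recomputed, 277 moved little, 19 moved and 1 turned. Depth limits the low genes: in score-zero cells 3 counts are worth 13.7 CPM.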

Other observations

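Among genes outside the lists, chosen after their values were seen, FTL, the ferritin light chain that stores iron, had 2051 CPM in score-zero cells, 2206, 2117 and 1589 CPM in the 3 groups of cells between and 1230, 993 and 865 CPM in the 3 high-scoring groups. SERPINE2, a secreted protease inhibitor, had 1447 CPM in score-zero cells and 664 to 920 CPM in the other groups. CDKN1A, an inhibitor of the cyclin-dependent kinases, stayed between 27.5 and 41.5 CPM along the whole score, but on only 6 UMIs in score-zero cells and in each high-scoring group. CCNE2, a cyclin of the G1/S transition, was at its highest in the lowest group between (32.0 CPM) and had no UMI in the first 2 high-scoring groups. Counting error allows up to 21.3 and 20.5 CPM in these 2 groups, and score-zero cells held only 3 UMIs.

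UBE2C was nearly absent from the MM.1S monoculture, with 0.965 CPM (0.463 to 1.78) against 387 CPM in HS-5, while TPX2 had 64.7 and 631 CPM.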
